A study of Mus musculus with 2 samples.

Results

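The genes described here are 10 that encode 2 galectins (Lgals1, Lgals3), the actin-capping protein Capg, 4 S100 proteins (S100a4, S100a6, S100a10, S100a11), 2 annexins (Anxa1, Anxa2) and the intermediate filament protein Vim, out of 27998 genes measured. The genes were chosen by symbol, with their levels in these cells known, so the levels below are a description and carry no test. Single γδ T cells were sorted from the liver and from the thymus of untreated wild-type C57BL/6J mice aged 8 weeks, and each tissue gave 1 droplet-based 3′ library. The thymic cells had also gone through a depletion of CD4+ and CD8+ cells with beads before sorting, a step that the study's methods give for the thymus alone. The animals of each tissue were pooled, so no comparison between tissues has replicates and every interval below covers counting error only. After cells were kept with 800 to 4000 genes and at most 6% mitochondrial transcripts, 8075 hepatic and 4351 thymic cells remained, with a median of 2741 and 3271 unique transcript counts (UMIs) per cell.

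Galectins are lectins that bind galactose-containing sugars inside and outside the cell. S100 proteins are small calcium-binding proteins, annexins bind membranes when calcium is present, and S100a10 and S100a11 are known to pair with annexins. Capg caps actin filaments, Vim builds the vimentin filament network, and several of these genes are known to be higher in T cells that have acquired effector function than in naive T cells.

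Cells of both libraries were clustered together without the 10 genes and their families among the variable genes, and the clusters were named from marker lists after the classes of the study. C1-like cells were immature thymic cells with Cd24a and Hes1, 2449 in the thymus. C3-like cells were led by Ly6c2, Dapl1 and Nsg2, 1105 in the liver and 181 in the thymus. C4-like (2815 cells, Socs2 and Cd40lg), C5-like (2803 cells, Ccl4, Gzmb and Tyrobp) and C7-like cells (265 cells, Klra6, Klra7 and Klrg1) were hepatic. C6-like cells carried Il17a and Il17f, the interleukin-17 genes, and Tmem176a, 791 in the liver and 163 in the thymus. The 105 C8-like hepatic cells had myeloid transcripts such as Lyz2 and Apoe, and 526 thymic and 48 hepatic cells formed a cluster led by cell cycle genes. Cluster 4 took no name, because 3 hemoglobin genes stood among its leading genes beside S1pr1 and Cd200. Its markers scored highest for C2, the transitional class, and it held 1015 thymic and 47 hepatic cells. An interferon cluster (76 hepatic cells) was led by Ifit3 and Ifit1.

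These names hold unequally well for the cells of both tissues. T cell genes were present in every class, with a summed level of the 4 T cell markers from 2793 to 5417 counts per 1000000 UMIs (CPM) outside the C8-like cells and 1011 CPM in them. Of the 181 C3-like thymic cells, 164 (90.6%) fell into 1 cluster when the thymus was clustered alone, and this cluster was led by Xcl1, Ly6c2, Ccl5 and Gzmb and scored highest for C5. For these cells C3-like names only the cluster they shared with hepatic cells. With that cluster in place of the 181 cells, the same 4 genes were higher than in C1-like cells and the same 3 were lower in hepatic C3-like cells as given below. Each level is a class total of UMIs for the gene, in CPM, and levels are compared between classes and not between genes.

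The promoters of 8 of the 10 genes had an entry in RefSeq (GRCm38.p6). The 250 bases before the annotated start are shown for S100a6, Lgals3, Capg and S100a4, the genes with the largest ratio of C6-like over C1-like thymic cells among those measured well enough to compare. They lie at chr3:90612644-90612893, chr14:47373610-47373859, chr6:72549397-72549646 and chr3:90603520-90603769, all on the plus strand. For Lgals3, Capg and S100a6 the RefSeq start lies inside the gene as GENCODE draws it, from 47367751 to 47386160 on chromosome 14, from 72544391 to 72562983 on chromosome 6 and from 90612882 to 90624181 on chromosome 3. Capitals mark matches on either strand to TATAAA, to TGANTCA, the AP-1 motif, to AGGTCA, the core motif of nuclear receptors including the ROR family, and to CCAAT.
S100a6: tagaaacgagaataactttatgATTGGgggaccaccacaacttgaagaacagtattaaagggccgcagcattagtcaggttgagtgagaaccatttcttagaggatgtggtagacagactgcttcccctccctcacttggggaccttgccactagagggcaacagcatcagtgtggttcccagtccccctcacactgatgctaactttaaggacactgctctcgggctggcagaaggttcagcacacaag
Lgals3: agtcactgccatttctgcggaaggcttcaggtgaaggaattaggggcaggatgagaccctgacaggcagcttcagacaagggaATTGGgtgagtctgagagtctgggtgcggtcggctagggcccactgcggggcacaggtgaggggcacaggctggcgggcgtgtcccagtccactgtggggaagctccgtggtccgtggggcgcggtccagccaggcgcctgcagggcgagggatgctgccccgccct
Capg: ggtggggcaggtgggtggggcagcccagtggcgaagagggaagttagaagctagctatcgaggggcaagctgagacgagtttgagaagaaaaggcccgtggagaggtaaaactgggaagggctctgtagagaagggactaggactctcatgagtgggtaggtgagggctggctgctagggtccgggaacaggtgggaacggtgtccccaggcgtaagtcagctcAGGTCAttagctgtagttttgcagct
S100a4: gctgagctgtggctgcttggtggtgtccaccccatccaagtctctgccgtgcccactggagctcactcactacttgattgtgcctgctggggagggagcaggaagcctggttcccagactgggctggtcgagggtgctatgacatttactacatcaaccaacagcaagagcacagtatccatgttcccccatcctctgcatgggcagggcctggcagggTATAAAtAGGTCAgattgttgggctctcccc

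S100a4 and S100a6 lie close together on chromosome 3, and S100a10 and S100a11 form another close pair on the same chromosome. AGGTCA was found in 3 of the 8 promoters (Capg, S100a4 and S100a11) and in 14% of all 32851 promoter windows of this length. TATAAA was found in 4 of the 8 (S100a4, Anxa1, Anxa2 and Vim) and in 12.4% of all windows, CCAAT in 3 (Lgals3, S100a6 and Vim) and in 33.8%, and TGANTCA in 2 (S100a11 and Anxa2) and in 6.75%. In Capg the AGGTCA match began 26 bases before the start, and in S100a4 it began 24 bases before the start, beside a TATAAA at 31 bases. These matches are letters in the sequence and were not tested as binding sites. In the GENCODE annotation S100a4 overlapped Gm42674 and Anxa2 overlapped Mir3109 on the same strand, so that reads could be shared there. On the other strand, Anxa1 overlapped 1500015L24Rik and Anxa2 overlapped Gm16144. The other 7 genes overlapped no gene model.

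**Figure D1:**
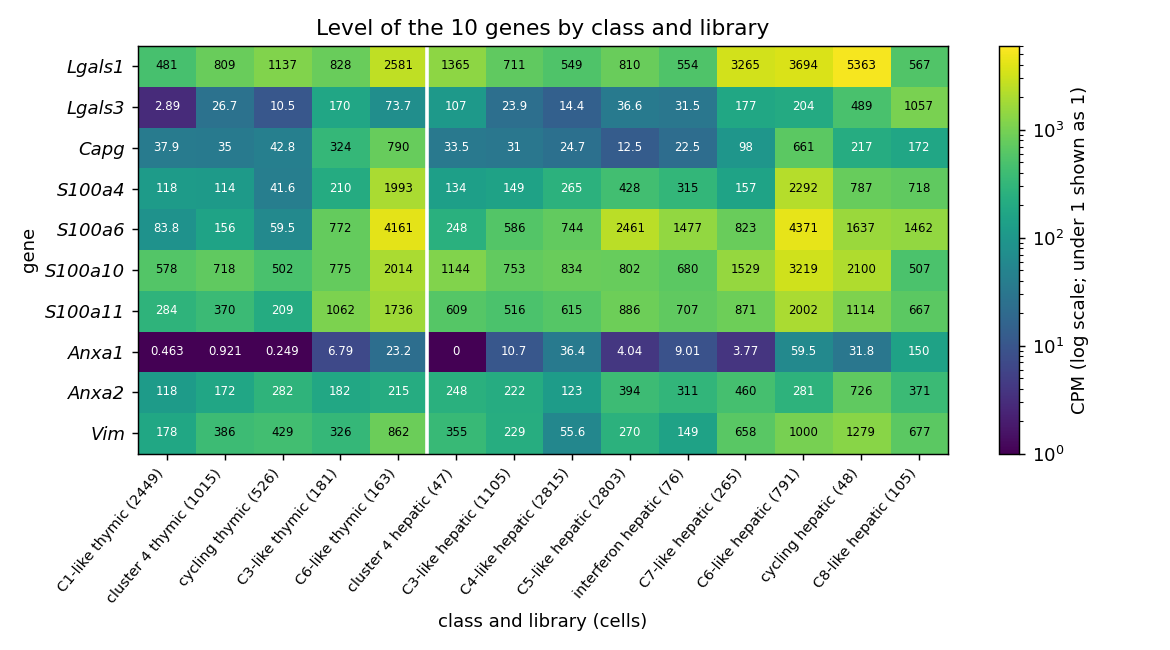
Heat map of the level of each gene (rows, CPM on a log colour scale, value printed in each cell) in 14 combinations of class and library (columns, number of cells in brackets), thymus left of the white line. In the columns of C6-like cells 7 of the genes stand at 661 CPM or more in both tissues, S100a6 reaching 4161 CPM in the thymus and 4371 CPM in the liver, and Anxa1 and Lgals3 are near 0 in C1-like thymic cells.

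In the thymus, the 10 genes together made up 0.188% of the UMIs of C1-like cells, 0.466% of those of C3-like cells and 1.44% of those of C6-like cells. The share was 0.279% in cluster 4 and 0.271% in cycling cells. In the liver it was 0.323% in C3-like, 0.326% in C4-like, 0.610% in C5-like, 0.804% in C7-like and 1.78% in C6-like cells. C6-like cells thus had the highest share in each tissue among these classes, and the 48 cycling hepatic cells came next with 1.37%. The whole libraries differed as well, with 0.606% in the liver and 0.27% in the thymus.

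S100a6 and S100a4 spanned 73.5-fold and 55.1-fold between the lowest and the highest of the 14 groups, and S100a11 and S100a10 spanned 9.58-fold and 6.41-fold. S100a6, which codes for calcyclin, stood at 83.8 CPM (exact Poisson 95% interval 77.8 to 90.2) in C1-like thymic cells, at 156 CPM in cluster 4, at 772 CPM in C3-like and at 4161 CPM in C6-like thymic cells. In the liver it was lowest in the 47 cells of cluster 4 with 248 CPM, followed by C3-like (586 CPM), C4-like (744 CPM), C7-like (823 CPM) and C5-like cells (2461 CPM), up to 4371 CPM (4289 to 4454) in C6-like cells. The intervals of the 2 C6-like groups overlapped, as did those of C7-like hepatic and C3-like thymic cells.

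S100a4, known as metastasin and as a marker of memory T cells, was similar in C1-like thymic cells (118 CPM, 111 to 126) and in cluster 4 of the thymus (114 CPM), and lowest in cycling thymic cells (41.6 CPM). It reached 210 CPM in C3-like and 1993 CPM in C6-like thymic cells. The hepatic levels were 149 CPM in C3-like, 157 CPM in C7-like, 265 CPM in C4-like, 428 CPM in C5-like and 2292 CPM in C6-like cells. C3-like and C7-like hepatic cells had overlapping intervals, and C7-like cells were below C5-like cells in S100a4 as in S100a6.

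S100a11, a partner of annexins, was at 284 CPM in C1-like, 370 CPM in cluster 4, 1062 CPM in C3-like and 1736 CPM in C6-like thymic cells. Its hepatic levels lay between 516 CPM in C3-like and 2002 CPM in C6-like cells, with 871 CPM in C7-like and 886 CPM in C5-like cells in between, whose intervals overlapped. S100a10, which pairs with Anxa2, varied least of the 4, from 502 CPM in cycling thymic cells to 3219 CPM (3149 to 3291) in C6-like hepatic cells. Its C6-like thymic level was 2014 CPM, and the C3-like cells of both tissues, with 775 CPM in the thymus and 753 CPM in the liver, could not be told apart.

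Both galectins were high in C7-like as well as in C6-like hepatic cells. Lgals1 was at 3265 CPM (3141 to 3393) in C7-like and at 3694 CPM (3619 to 3771) in C6-like hepatic cells, against 549 CPM in C4-like, 711 CPM in C3-like and 810 CPM in C5-like cells. In the thymus Lgals1 was at 481 CPM in C1-like, 809 CPM in cluster 4, 828 CPM in C3-like, 1137 CPM in cycling and 2581 CPM in C6-like cells. Cycling hepatic cells had the highest level of the 14 groups with 5363 CPM. Lgals3 was at 2.89 CPM (1.87 to 4.27) in C1-like thymic cells, the lowest level of the 14 groups, and at 26.7 CPM in cluster 4. It was higher in C3-like thymic cells with 170 CPM (138 to 206) than in C6-like thymic cells with 73.7 CPM (51.4 to 103), an order that no other gene of the 10 showed in the thymus.

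In the liver Lgals3 was at 14.4 CPM in C4-like, 23.9 CPM in C3-like, 36.6 CPM in C5-like, 177 CPM in C7-like and 204 CPM in C6-like cells. The last 2 did not differ beyond their intervals. The C8-like cells had 1057 CPM of Lgals3, the highest level of all groups, together with 12969 CPM of Lyz2. In C6-like hepatic cells Lyz2 was at 13.3 CPM and the 12 myeloid markers summed to 86.9 CPM, against 77.2 CPM in C4-like cells, while Lgals3 stood at 204 and 14.4 CPM in these classes. In the C7-like cells the myeloid markers summed to 141 CPM and in the cycling hepatic cells to 260 CPM. The part of myeloid transcripts in the Lgals3 level was not tested in any of these classes, C6-like cells included.

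Capg was highest in the C6-like cells of both tissues. Its level was 790 CPM (712 to 874) in the thymus and 661 CPM (629 to 694) in the liver, followed by 324 CPM (280 to 373) in C3-like thymic cells and by 217 CPM in cycling and 172 CPM in C8-like hepatic cells. All other groups were at 98.0 CPM or below, and C5-like cells were lowest with 12.5 CPM (10.2 to 15.2). Capg stood among the 10 leading genes of the C6-like cluster although it had been left out of the clustering. It was the only one of the 10 genes among the leading genes of any of the 12 clusters.

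Vim was lowest in C4-like hepatic cells with 55.6 CPM (50.6 to 61.0) and low in the interferon cluster (149 CPM), C1-like thymic (178 CPM) and C3-like hepatic cells (229 CPM). It was at 270 CPM in C5-like, 658 CPM in C7-like and 1000 CPM in C6-like hepatic cells, at 326 CPM in C3-like and 862 CPM in C6-like thymic cells, and at 1279 CPM in cycling hepatic cells. The 6 fibroblast and stellate cell markers summed to 0.124 CPM over all hepatic cells, and 1 of them had any UMI. The part of such cells in the Vim level was not tested.

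The annexins had orders of their own. Anxa2 was at 118 CPM (111 to 126) in C1-like thymic and at 123 CPM (115 to 131) in C4-like hepatic cells, whose intervals overlapped. It was at 215 CPM in C6-like thymic, 222 CPM in C3-like, 281 CPM in C6-like, 394 CPM in C5-like and 460 CPM in C7-like hepatic cells, so that C6-like hepatic cells were below the C5-like and C7-like ones. Anxa1, known as a mediator of the glucocorticoid response, was sparse. Only 25 UMIs were counted over all thymic cells (1.47 CPM), 11 of them in C6-like and 4 in C1-like cells. In the liver it was at 59.5 CPM (50.3 to 69.9) in C6-like and at 36.4 CPM (32.4 to 40.8) in C4-like cells, against 4.04 CPM in C5-like and 3.77 CPM in C7-like cells, the latter from 3 UMIs. C8-like cells had 150 CPM. No UMI was counted in the 47 hepatic cells of cluster 4, where 3 UMIs would have given 20.1 CPM.

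The study asked how γδ T cells mature from the thymic stages onward, and the thymic classes were therefore set against the C1-like cells. A difference is counted below when the CPM differed at least 2-fold and the gene had at least 50 CPM in 1 of the groups and 50 UMIs over both. In C3-like against C1-like thymic cells, 4 of the 9 genes that met these limits were higher and none was lower, where 8.17% of all 2765 genes compared were at least 2-fold higher. They were Lgals3 (58.7-fold, 37.6 to 95), S100a6 (9.21-fold, 8.17 to 10.4), Capg (8.55-fold, 7.11 to 10.2) and S100a11 (3.74-fold, 3.42 to 4.08). Lgals1, S100a4 and Vim were between 1.72 and 1.83-fold of the C1-like level and S100a10 was at 1.34-fold. The median log2 ratio was 0.87 over the 9 genes and -0.23 over all genes compared.

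In C6-like against C1-like thymic cells, 8 of 9 genes were at least 2-fold higher, against 13.3% of 2930 genes. The ratio was 49.6 (45.6 to 54.1) for S100a6, 25.5 for Lgals3, 20.8 for Capg, 16.9 for S100a4 and 6.11 for S100a11, and it lay between 3.48 and 5.37 for Lgals1, Vim and S100a10. Anxa2 was the exception with 1.82-fold (1.47 to 2.23). Anxa1 had too few UMIs to be counted, with 11 against 4 UMIs and a ratio whose interval ran from 14.8 to 216.

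Cluster 4, scored closest to the transitional class, differed less from C1-like cells. Of 7 genes compared, Vim was 2.17-fold higher (2.01 to 2.33), against 3.52% of 2726 genes at least 2-fold higher. S100a4 (0.962-fold, 0.852 to 1.08) did not differ beyond its interval and S100a6 was at 1.86-fold. The 5 erythroid genes reached a summed 302 CPM in thymic cluster 4, against 30.9 to 49.0 CPM in other thymic classes, and their part in these values was not tested. Lgals3, below the limit of 50 CPM in both groups, was 9.24-fold higher (5.87 to 15.1).

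The C1-like cells themselves were uneven. They came from cluster 2, with 1495 cells led by Tnfsf11, Slc35d1 and Hes1, and cluster 5, with 954 cells led by Tox2, Igfbp4 and Etv5. Cluster 5 was higher in Vim (4.66-fold, 4.08 to 5.34), Lgals1 (4.50-fold, 4.16 to 4.88), Anxa2 (3.95-fold, 3.38 to 4.63) and S100a4 (2.76-fold, 2.40 to 3.19), which makes 4 of 7 genes, against 1.88% of 2717 genes. S100a11 was equal, at 284 and 285 CPM. Cells of cluster 5 were deeper, with a median of 4424 against 2727 UMIs. CPM sets each level against the summed UMIs of its cluster, and the part of depth in these ratios was not tested.

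**Figure D2:**
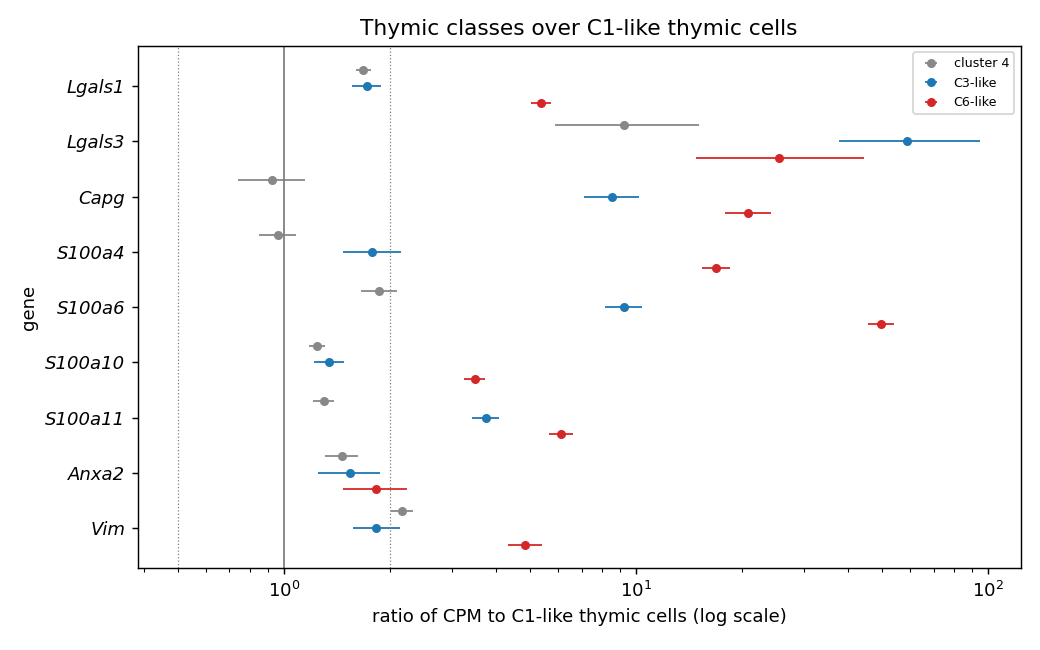
Ratio of CPM (log axis, points, with exact 95% intervals as bars) of cluster 4, C3-like and C6-like cells to C1-like cells in the thymus, for 9 genes; Anxa1 is not drawn because of its few UMIs, and dotted lines mark 2-fold. C6-like cells lie furthest to the right for every gene but Lgals3, where C3-like cells reach 58.7 and C6-like cells 25.5.

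Cycling thymic cells had a pattern of their own. Compared with C1-like cells, Vim (2.41-fold), Anxa2 (2.38-fold) and Lgals1 (2.36-fold) were higher, 3 of 7 genes against 11.4% of 2893 genes, and S100a4 was lower (0.352-fold, 0.297 to 0.415) where 8.12% of genes were at least 2-fold lower. S100a6 was at 0.710-fold and S100a11 at 0.736-fold. In C6-like against C3-like thymic cells, 6 of 9 genes were higher, against 9.75% of 2441 genes, with S100a4 at 9.47-fold and S100a6 at 5.39-fold, and Lgals3 was lower (0.435-fold, 0.287 to 0.644), against 4.59%. S100a11 differed by 1.63-fold and Anxa2 by 1.18-fold, an interval of 0.893 to 1.57 that includes 1.

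Cd24a, whose protein is lost as thymic γδ T cells mature, gave an order that did not rest on the clusters. Each thymic cell was thinned at random to 1500 UMIs and grouped by its Cd24a UMIs, which gave 2494 cells with 0, 998 with 1, 428 with 2 and 424 with at least 3. S100a6 was at 422, 104, 95 and 42.5 CPM in these groups, S100a4 at 235, 79.5, 79.4 and 42.5 CPM, and Vim at 331, 220, 181 and 89.6 CPM. Lgals1 went from 783 over 574 and 519 to 332 CPM. Cells without Cd24a were thus highest for each of these genes and cells with at least 3 Cd24a UMIs lowest, while the groups with 1 and 2 UMIs had overlapping intervals for all 4.

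Between the ends of this order, 5 of the 8 genes that met the limits were at least 2-fold higher in cells without Cd24a, against 2.69% of 2823 genes. They were S100a6 (9.94-fold, 6.80 to 15.1), S100a4 (5.55-fold), Vim (3.69-fold), Capg (2.88-fold) and Lgals1 (2.36-fold). S100a11 (1.92-fold), S100a10 (1.63-fold) and Anxa2 (1.32-fold, 1.04 to 1.71) differed less. Lgals3 was at 31.5 and 3.14 CPM at the ends, the latter from 2 UMIs. All 8 Anxa1 UMIs of the thinned cells lay in cells with 0 Cd24a UMIs after thinning. Thinning also removed Cd24a UMIs, since 1631 cells had 0 before it and 2494 after it. Before thinning, 18 Anxa1 UMIs lay in cells with 0 Cd24a UMIs, 3 in cells with 1 and 4 in cells with at least 3. Without thinning, 4 genes passed, with S100a11 at 2.40-fold among them, and Lgals1 (1.17-fold) and Vim (1.67-fold) did not. Anxa2 turned its direction without thinning, to 0.895-fold (0.818 to 0.979). Cells without a Cd24a UMI include C3-like and C6-like cells, so this order and the classes share cells.

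**Figure D3:**
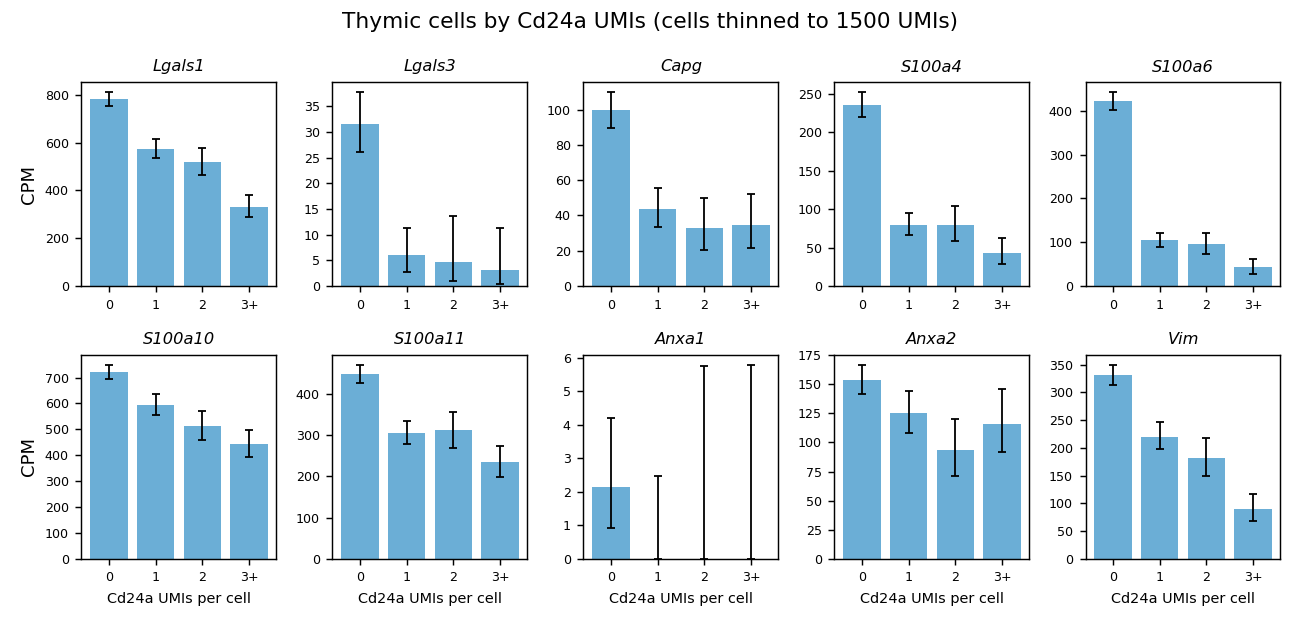
Level of each gene (bars, CPM from 0, with exact Poisson 95% intervals) in thymic cells grouped by the number of Cd24a UMIs per cell after thinning to 1500 UMIs. The bar at 0 is the highest for every gene, with S100a6 at 422 CPM against 42.5 CPM in cells with at least 3.

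In the liver, the other classes were set against the C3-like cells. Klf2, S1pr1 and Ccr7, genes of resting and recirculating T cells, were at least 2-fold higher in these than in C4-like, C5-like and C7-like cells. Klf2 and S1pr1 belong to the marker list by which the C3-like cluster was named. Against C6-like cells, Ccr7 alone of these genes was at least 2-fold higher in C3-like cells. C4-like cells, in which Ifng stood at 1052 CPM, differed least. Of 7 genes compared, none was at least 2-fold higher and Vim was lower (0.243-fold, 0.216 to 0.273), against 2.36% of 2458 genes at least 2-fold lower. S100a4 was at 1.77-fold (1.61 to 1.95) and Anxa2 at 0.553-fold (0.504 to 0.608). Anxa1, below 50 CPM in both groups, was at 36.4 CPM in C4-like and 10.7 CPM in C3-like cells, 3.41-fold (2.43 to 4.89). In C5-like cells, with Gzmb at 6009 CPM, 2 of 7 genes were higher, against 7.13% of 2470 genes, S100a6 by 4.20-fold (4.02 to 4.40) and S100a4 by 2.86-fold (2.61 to 3.14). Capg was below 50 CPM in both groups and at 0.403-fold (0.305 to 0.533) in C5-like cells. The 3 CD4 and CD8 genes summed to 402 CPM in C5-like and 96.5 CPM in C3-like cells, with Cd4 at 0 in the former, and their part in these values was not tested.

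C5-like and C4-like cells, both with high Ifng, differed from each other. Vim was 4.85-fold (4.38 to 5.38), S100a6 3.31-fold (3.21 to 3.40) and Anxa2 3.21-fold (2.99 to 3.45) higher in C5-like cells, 3 of 7 genes against 2.58% of 2484 genes. S100a10 was near equal (0.962-fold, 0.929 to 0.995). Anxa1 went the other way, with 296 UMIs in C4-like and 32 UMIs in C5-like cells, a ratio of 0.111 (0.0745 to 0.160), below the limit of 50 CPM in both.

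C6-like cells had the most genes past 2-fold against the C3-like hepatic cells. All genes but Anxa2 were at least 2-fold higher, 9 of 10 against 11.4% of 2508 genes. The ratio was 21.3 (17.6 to 26.0) for Capg, 15.3 (14 to 16.8) for S100a4, 8.54 for Lgals3, 7.46 for S100a6, 5.56 for Anxa1 and between 3.88 and 5.20 for Lgals1, Vim, S100a10 and S100a11. Anxa2 was at 1.27-fold (1.14 to 1.40). The median log2 ratio of the 10 genes was 2.43, and that of all genes compared was 0.19. Cd79b, a B cell marker, was at 101 CPM in C6-like and 14 CPM in C3-like hepatic cells, and at 73.7 CPM in C6-like and 16.7 CPM in C1-like thymic cells. Of the other B cell markers, Cd79a was at 1.21 CPM and Ms4a1 at 0 in C6-like hepatic cells and both were at 0 in C6-like thymic cells, and the part of B cell transcripts in the levels of the 10 genes was not tested.

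Against C5-like cells, C6-like cells were higher in 8 of 10 genes, where 10.1% of 2687 genes were at least 2-fold higher. Capg led with 52.9-fold (43.2 to 65.4), and Anxa1 was 14.7-fold higher. S100a6 was at 1.78-fold (1.74 to 1.82), since C5-like cells had a high level of it, and Anxa2 at 0.713-fold (0.656 to 0.774).

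C7-like cells were higher than C3-like hepatic cells in 6 of 9 genes, against 6.73% of 2513 genes. These were Lgals3 (7.42-fold, 5.64 to 9.81), Lgals1 (4.60-fold, 4.35 to 4.85), Capg (3.16-fold), Vim (2.87-fold), Anxa2 (2.07-fold) and S100a10 (2.03-fold). S100a4 was at 1.05-fold (0.858 to 1.28) and S100a6 at 1.41-fold. Against C5-like cells, Capg, Lgals3, Lgals1 and Vim were higher, 4 of 9 genes against 2.99% of 2576 genes, whereas S100a6 (0.334-fold, 0.309 to 0.362) and S100a4 (0.367-fold, 0.305 to 0.439) were lower, against 4.35%. The galectins and the pair S100a4 and S100a6 thus differed between C5-like and C7-like cells in opposite directions.

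**Figure D4:**
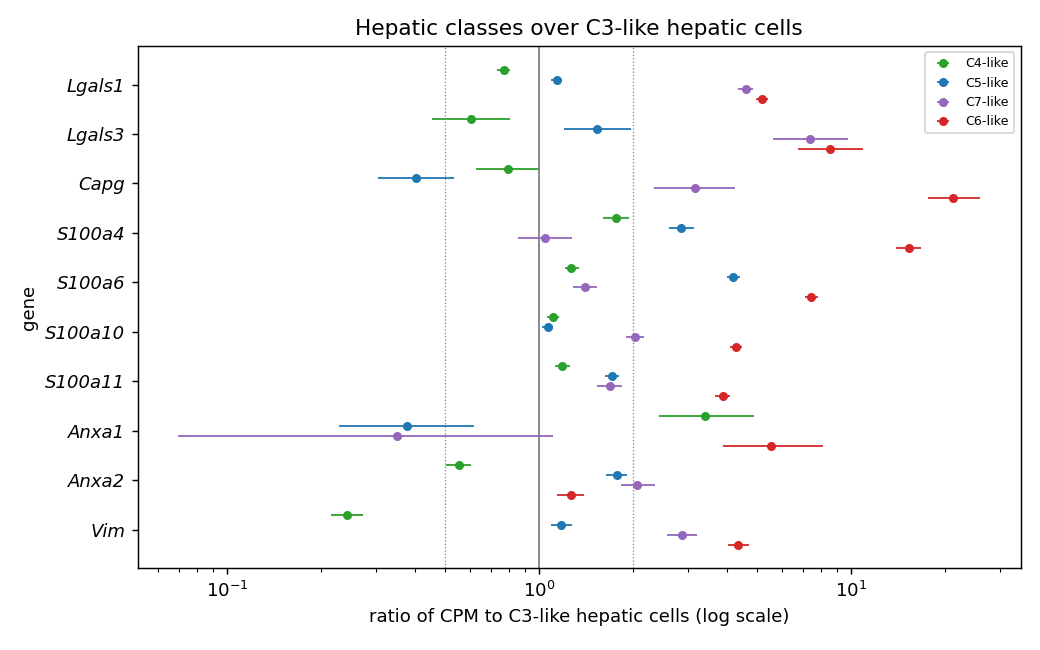
Ratio of CPM (log axis, points, with exact 95% intervals as bars) of C4-like, C5-like, C7-like and C6-like cells to C3-like cells in the liver for the 10 genes, with dotted lines at 2-fold. C6-like cells lie furthest to the right for all genes but Anxa2, C7-like cells stand beside them for the galectins, and C5-like cells come second for S100a4 and S100a6.

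Over all cells, Lgals3 (3.81-fold, 3.38 to 4.30), S100a4 (3.37-fold, 3.23 to 3.52), S100a6 (7.31-fold, 7.08 to 7.56) and S100a11 (2.41-fold, 2.34 to 2.48) were higher in the liver than in the thymus. These are 4 of 9 genes, against 11.6% of 2885 genes. Vim was at 300 CPM in the liver and 301 CPM in the thymus. Anxa1, below 50 CPM in both libraries, was at 24.5 CPM in the liver and 1.47 CPM in the thymus.

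Within the classes found in both tissues the picture changed. In C3-like cells no gene was at least 2-fold higher in the liver, and Capg (0.0956-fold, 0.0751 to 0.121), Lgals3 (0.141-fold, 0.104 to 0.189) and S100a11 (0.486-fold, 0.444 to 0.533) were lower there, 3 of 9 genes against 3.95% of 2405 genes. S100a6 was at 0.758-fold, although its level over all cells was higher in the liver. The C3-like cells of both tissues also differed in other genes, with Ifng at 508 CPM in the liver and 117 CPM in the thymus, Klf2 at 2578 and 682 CPM, and Zbtb16, which codes for PLZF, at 12.1 and 124 CPM.

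In C6-like cells, Lgals3 (2.76-fold, 1.96 to 4.01) and Anxa1 (2.57-fold, 1.39 to 5.26) were higher in the liver, 2 of 10 genes against 5.34% of 2695 genes. S100a10 was at 1.60-fold and Lgals1 at 1.43-fold, and S100a4, S100a11, Vim and S100a6 were between 1.05 and 1.16-fold. Capg was slightly lower in the liver (0.837-fold, 0.747 to 0.939). Il17a itself was at 1612 CPM in hepatic and 398 CPM in thymic C6-like cells.

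Cycling cells showed the widest gap between tissues. All 9 genes compared were at least 2-fold higher in the 48 hepatic than in the 526 thymic cycling cells, against 10.8% of 2937 genes, from 2.58-fold for Anxa2 and 2.98-fold for Vim to 18.9-fold for S100a4, 27.5-fold for S100a6 and 46.7-fold (33.2 to 67.2) for Lgals3. The cell cycle markers summed to 3092 CPM in the liver and 3537 CPM in the thymus. The 2 groups hold different kinds of cells, since the hepatic ones had Ifng at 437, Il17a at 229 and Ccl5 at 12236 CPM and the thymic ones had Cd24a at 531 and Hes1 at 301 CPM. In the hepatic cells the median was 6477 UMIs, and H2-Aa, a gene of antigen-presenting cells, was at 95.5 CPM. The 9 genes were also at least 2-fold higher among the 43 hepatic cells left without the highest doublet scores, and among the 33 with fewer than 2 myeloid UMIs. Both counts were added after seeing the data, and the part of doublets and of myeloid transcripts in the gap was not tested.

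**Figure D5:**
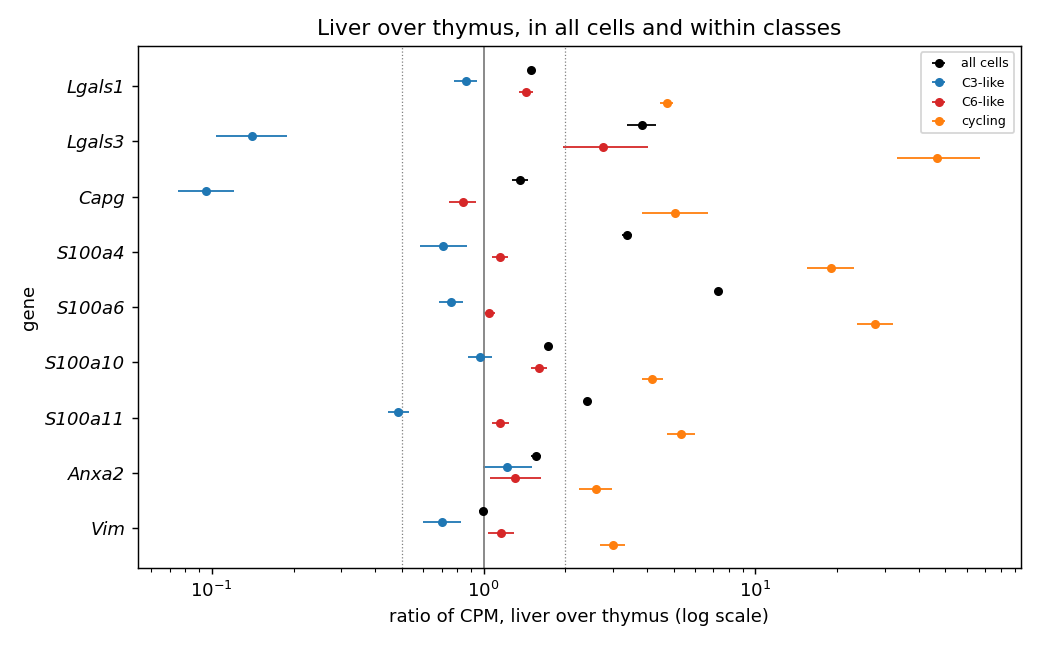
Ratio of CPM (log axis, points, with exact 95% intervals as bars) of the liver library over the thymus library for 9 genes, in all cells and in the C3-like, C6-like and cycling cells, with dotted lines at 2-fold. The points of all cells lie right of 1 for every gene but Vim (0.997), the points of C3-like cells lie left of 1 for every gene but Anxa2, and those of cycling cells lie furthest right.

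The same cells often held several of the transcripts. After thinning to 1500 UMIs, which left out 5 hepatic and 7 thymic cells, a median of 4 of the 10 genes was detected per hepatic cell and of 2 per thymic cell, and without thinning it was 5 and 3. The mean was 3.72 ± 1.78 (SD over cells) in the liver and 2.22 ± 1.64 in the thymus. The median was 7 in C6-like cells of both tissues, with quartiles of 5 and 7. At least 5 genes were detected in 88.9% of C6-like hepatic and 87.7% of C6-like thymic cells, against 44.7% of C7-like, 39.4% of C5-like, 11.4% of C4-like and 3.23% of C1-like cells. None of the genes was detected in 16.4% of C1-like cells and in 0.393% of C5-like cells.

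Across the 14 groups the levels of the genes went up and down together to unequal degrees. Pearson's r of log2 CPM, with 10 CPM added, had a median of 0.60 over the 45 pairs and lay between 0.16 for Lgals1 and Anxa1 and 0.92 for S100a6 and S100a11, and no pair was below 0. Of the 2 pairs that lie close together, S100a4 and S100a6 had r of 0.90 and S100a10 and S100a11 had 0.80. Lgals1 and S100a10, which lie on different chromosomes, had 0.89. The 14 groups come from 2 libraries and share their depth and ambient RNA, so these values describe the groups and carry no p.

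Among 4390 other genes with at least 50 CPM in a group, the genes most like a member were Tspo for S100a6 (r = 0.94) and for S100a11 (0.92), Adam8 and Ltb4r1 for S100a4 (both 0.91), Rarg for Capg (0.90), Mt1 for Lgals3 (0.90), Sept11 for Lgals1 (0.91) and Slc1a5 for S100a10 (0.91). Cdkn1a was closest to Anxa1 (0.89), Reep5 to Vim (0.88) and Rfc2 to Anxa2 (0.80). The mean of the 10 genes was followed most closely by Rnh1 (0.91), Nfic, B3gat3, Ltb4r1 and Emp3 (0.88 each), and then by Fam177a, Cryba4, Atp2b1, Spn and Adam8, between 0.86 and 0.87.

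Other genes of the same families were mostly low, and those that were not low did not all go one way. In C6-like against C3-like hepatic cells, Lgals3bp, S100a13, Anxa5, Anxa7, Lmna, Lmnb1 and Plec were at least 2-fold higher. None of these relatives was lower, and 11.4% of all genes compared were higher. In C6-like against C1-like thymic cells the same genes but Lmnb1 were higher, against 13.3% of all genes compared, and Lgals9 and Gsn were lower. Of 8 genes found from a list of other galectins and of Lgals3bp, which codes for a galectin-binding protein, Lgals8, Lgals9 and Lgals3bp reached 50 CPM in a group. Lgals9 was at 259 CPM in C1-like thymic cells, its highest level, and at 61.9 CPM in C6-like hepatic cells, its lowest. Between C6-like and C3-like cells it was not 2-fold lower in either tissue, so an order opposite to Lgals1 did not hold across all classes. Of 13 genes in a list of other S100 genes and of S100pbp, which codes for an S100-binding protein, S100a13 alone reached 50 CPM, and it was at 508 CPM in C7-like, 434 CPM in C6-like hepatic, 453 CPM in C6-like thymic and 110 CPM in C1-like cells. S100a8 and S100a9, the pair made by neutrophils, were at 48.5 and 0 CPM in the C8-like cells and at 2.89 CPM or below in every other group.

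Of 10 other annexins, Anxa3, Anxa5, Anxa6, Anxa7 and Anxa11 reached 50 CPM. Anxa5 was at 142 and 141 CPM in hepatic and thymic C6-like cells and at 41.5 CPM in C1-like cells, and Anxa6 was highest in C7-like cells with 417 CPM. In the gelsolin family, to which Capg belongs, Gsn was at 150 CPM in C1-like thymic and 8.04 CPM in C6-like hepatic cells, where Capg was at 37.9 and 661 CPM. In C3-like, C4-like and C5-like hepatic cells both genes were below 50 CPM, so the opposite order did not hold across all classes. Flii reached 55.0 CPM. Among 10 intermediate filament and linker genes, Lmna was at 170 CPM in C6-like hepatic and 133 CPM in C6-like thymic cells and at 2.90 CPM in C5-like cells. Plec was highest in C6-like hepatic cells (65.5 CPM) and Lmnb1 in cycling hepatic cells (324 CPM).

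Of 17 genes of partners and the cytoskeleton, 7 were at least 2-fold higher in C6-like than in C3-like hepatic cells and none was lower, against 11.4% of all genes compared that were higher. They were Ahnak, Crip1, Tagln2, Emp3, Lsp1, Itgb1 and Cd44. In C6-like against C1-like thymic cells 8 of the 17 were higher and none lower, against 13.3% of all genes compared that were higher, and Ahnak, which binds S100a10, was at 206 against 6.82 CPM. In C5-like against C3-like hepatic cells none was higher, against 7.13% of all genes compared. Of the 17 genes listed for effector maturation, 14 met the limits in C3-like against C1-like thymic cells and 11 of these were higher, against 8.17% of all genes compared, among them Ccl5, Ifng, Klrd1 and Il2rb. In C6-like against C3-like hepatic cells 5 of 16 were higher, against 11.4%, namely Cxcr6, Zbtb16, Il18r1, Itgae and Itgb7, and Ifng, Ccl5, Nkg7, Klrd1 and Ccr7 were among those lower. Ifng stood at 1052 CPM in C4-like and 733 CPM in C5-like cells against 154 CPM in C6-like hepatic cells, whereas the share of the 10 genes was 0.326%, 0.610% and 1.78%.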

How the data were processed

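UMI counts per gene and cell barcode, not normalized, were deposited by the authors for both libraries. The submitters' processing notes name Cell Ranger, Seurat 3.0 and mm10. Of 8658 hepatic and 4541 thymic barcodes, 8075 and 4351 were kept by gene number and mitochondrial share, with 24168037 and 17064752 UMIs in all. Barcodes shared by both libraries (56 among those kept) were treated as separate cells. Scrublet in scanpy 1.11.5 called 0.0495% of hepatic and 0.138% of thymic cells, so its threshold did not work and doublets were kept. Cells were clustered with Seurat 5.3.0 (R 4.3.3; 2000 variable genes, 1981 after removal of the 10 genes and their families, 30 components, resolution 0.6). A cluster was named when its marker score reached 0.5 and led by 0.2. Summed counts were expressed as CPM, with exact Poisson intervals for levels and exact conditional binomial intervals for ratios (scipy 1.17.1, 95%). Intervals cover counting error only. Each tissue had 1 library, so no test was made. Genes called had at least 50 CPM in 1 group, 50 UMIs over both groups and a 2-fold difference. The scripts were checked on simulated counts. The 10 genes and all lists were chosen with earlier results of these data known, and named genes were the 10 members, the genes most like them across groups and the listed families. The comparisons within C1-like cells, of cycling cells with C1-like cells and between tissues, of C6-like with C3-like thymic cells and of C5-like with C4-like cells were added after seeing the data. Some genes of the marker and effector lists are not reported here.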

Additional observations from a re-analysis of the deposited data

Results flagged for a closer look

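Lgals3 was singled out because the same contrast went in opposite directions in both tissues. C6-like over C3-like cells gave a ratio of 8.54 (6.79 to 10.9) in the liver and of 0.435 (0.287 to 0.644) in the thymus. Read the other way, the liver over the thymus gave 0.141 (0.104 to 0.189) in C3-like and 2.76 (1.96 to 4.01) in C6-like cells. With 1 library per tissue the difference was not tested. Both contrasts rest on the same 4 levels, 23.9 and 204 CPM in the liver and 170 and 73.7 CPM in the thymus, and on the 181 thymic cells that shared a cluster with hepatic C3-like cells but were C5-like when the thymus was clustered alone.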

How the results depend on the processing

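No paired analysis was possible because each tissue had 1 library. Of the counts of genes past 2-fold recomputed under the alternatives, 164 stayed within 1.5 times the reported count and 16 did not. The 164 include the mean numbers of genes detected per cell, which were judged by the SD over cells. Of the ratios of single genes, those by Cd24a included, 1313 stayed within the reported interval and 183 left it. The comparison of all hepatic with all thymic cells used no classes. Alternatives that changed only the clustering could not move its values, which are counted here as unchanged. None of the ratios past 2-fold changed direction (0), but 39 ratios that were not past it did, all of them at 0.40 or less on the log2 scale as reported, and among them the ratio of Anxa2 by Cd24a went from 1.32 to 0.895 without thinning. C4-like against C3-like hepatic cells (reported: 1) gave 2 at resolution 0.4, when the 10 genes and their families entered the clustering, without the highest Scrublet scores and with no minimum level, and 3 with totals without mitochondrial and ribosomal-protein UMIs and at 1.5-fold. Cluster 4 against C1-like thymic cells (reported: 1) gave 2 with 20 components, without the highest Scrublet scores, with the mean of each cell's own CPM, with cells thinned to 1500 UMIs and with no minimum level, and 3 at 1.5-fold. C3-like against C1-like thymic cells (reported: 4) gave 7 with the mean of each cell's own CPM and 8 at 1.5-fold. C5-like against C3-like hepatic cells (reported: 2) gave 4 at 1.5-fold and with no minimum level. The causes were not tested. C6-like against C3-like hepatic cells stayed at 9 throughout, and C6-like against C1-like thymic cells at 7 to 9. With each library clustered alone, 7 comparisons gave no value, since no cluster took the needed name. Anxa1 was below 50 CPM in every thymic class and had 25 thymic UMIs, so it was not counted in comparisons within the thymus. Thinning to 1000 UMIs in place of 1500 lowered the mean number of genes detected per cell to 3.01 in the liver and 1.71 in the thymus.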

Other observations

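When the liver was clustered alone, C4-like cells fell mainly into a cluster of 1596 cells, 1573 of them C4-like, and a cluster of 1528 cells, of which 1187 were C4-like and 311 C5-like. Vim was at 37.2 and 98.5 CPM in them, Anxa2 at 80.1 and 197 CPM, and S100a6 at 571 and 1073 CPM, while their median depths were 2737 and 2700 UMIs. The split was seen after the data were examined and was not tested, and the part of the C5-like cells in it was not tested either.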
